A study of Homo sapiens with 6 samples.

Results

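The 37 genes described here are amino acid stress genes and targets of ATF4, the transcription factor that carries the amino acid stress response. They were taken from a list of gene names and not by a threshold on measured values. That list and the other lists below were, however, chosen with earlier results of these data known. All 37 had transcript rows in the count table, which were summed per gene. All 37 also passed the filter on low counts, among 15771 genes tested. When amino acids run short or unfolded protein builds up, protein kinases phosphorylate the translation factor eIF2, general protein synthesis slows and translation of the ATF4 message goes up. ATF4, bound to DNA together with C/EBP-family partners, then switches on genes for making, importing and charging amino acids, and genes such as DDIT3 (CHOP) and TRIB3 that shape or end the response. Since ATF4 is controlled largely through translation, its mRNA level shows only a part of that control.

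Polyadenylated RNA was sequenced from a single line of primary human skin fibroblasts, as 2 libraries in each of 3 groups. VP64-MyoD cells carried a lentivirus from which doxycycline induces mouse MyoD, a master regulator of skeletal muscle, with the viral VP64 activation domain fused to its N-terminus. WT-MyoD cells carried the same vector for unfused mouse MyoD, and in both the factor was co-expressed with the red fluorescent protein dsRed-Express2. After selection in 1 µg/mL puromycin the confluent cultures received 3 µg/mL doxycycline and were harvested on day 10. The third group held untreated fibroblasts, for which the labels name no expressed transgene. The labels do not say whether these cells were transduced, selected, given doxycycline or held in culture as long, so the effects of all of these and of MyoD cannot be told apart in a comparison with them. The libraries held between 40997586 and 53804224 counts, and every count is even, as when a read pair counts as 2. The mouse transgene had 5372 and 5056 counts in VP64-MyoD cells, 42900 and 41736 in WT-MyoD cells, and 254 and 46 in untreated cells, so the MyoD libraries held far more of it than the untreated ones. The counts do not show which form of MyoD a library carried. The libraries are described as biological duplicates of 1 line, and p-values speak only of the spread between those cultures. The amount of transgene RNA differed between the forms of MyoD as well, and it cannot be told apart from the VP64 domain in their comparison. The 10 fibroblast markers summed to 31013.3 and 28602.4 CPM (counts scaled to library size by TMM, the unit of all levels here) in VP64-MyoD cells. They summed to 27347.0 and 31374.6 CPM in WT-MyoD cells, and 42639.0 and 44899.9 CPM in untreated cells. COL1A1, COL1A2 and COL3A1 made up most of each sum. In edgeR (adjusted p under 0.05) DCN, LUM and THY1 rose and 5 markers fell with WT-MyoD over untreated. LUM alone rose and 8 markers fell with VP64-MyoD over untreated. The shares of all genes were 25.7% and 22.2% for WT-MyoD, then 33.0% and 30.0% for VP64-MyoD. DCN had means of 375 CPM in VP64-MyoD cells, 1542.7 CPM in WT-MyoD cells and 975 CPM in untreated cells. For PI16 the means were 4.98, 59.7 and 599.8 CPM in that order. The 8 muscle markers summed to 3959.2 and 3440.1 CPM in VP64-MyoD cells, 772 and 697 CPM in WT-MyoD cells, and 6.13 and 5.23 CPM in untreated cells. Of the WT-MyoD sums, CHRNA1 made up 487 and 434 CPM and TNNC2 only 0.636 and 0.487 CPM. Endothelial markers summed to at most 1.94 CPM and epithelial markers to at most 0.903 CPM in any library. Of the blood markers, CD3E had no count in any library and PTPRC stayed at or under 1.68 CPM. CD14 stood at 0.344 and 0.191 CPM in VP64-MyoD cells, 1.48 and 1.75 CPM in WT-MyoD cells and 0.682 and 0.636 CPM in untreated cells. CD68, which lysosome-rich cells also express, had the same order of groups. It stood at 42.9 and 44.7 CPM in VP64-MyoD cells, 175 and 178 CPM in WT-MyoD cells and 66 and 67.6 CPM in untreated cells. The 4 pericyte and smooth muscle markers summed to 667 and 651 CPM in VP64-MyoD cells, 229 and 217 CPM in WT-MyoD cells and 571 and 606 CPM in untreated cells, almost all of it ACTA2. Their sums were thus lowest with WT-MyoD, as were 33 of the 37 genes, but highest with VP64-MyoD, as only 6 of the 37 were. The part of these other cells or of muscle differentiation in the results below was not tested.

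With WT-MyoD, 35 of the 37 genes were lower than in untreated cells and 1 was higher, in a fit where 22.2% of all genes were called lower and 25.7% higher (edgeR's quasi-likelihood test on all 6 libraries, call at an adjusted p under 0.05). All 25 genes of amino acid synthesis, import and charging were among the 35. Of the 37 genes, 24 were lower by more than 2-fold, against 4.00% of all genes. The median log2 fold change was -1.13 over the 37 genes and 0.00 over all genes. With VP64-MyoD, 25 of the 37 were lower than in untreated cells and 3 higher, against a background of 30.0% and 33.0%, but the falls were smaller. Their median log2 fold change was -0.44, against 0.03 over all genes, and 3 genes (ATF5, SESN2 and SLC38A2) were lower by more than 2-fold, against 6.94% of all genes. Set directly against WT-MyoD, VP64-MyoD cells had higher levels of 30 of the 37 genes and lower levels of 2, against 28.3% and 28.2% of all genes, at a median of 0.83 on the log2 scale, against 0.02 over all genes. Of the 30, 12 were more than 2-fold higher, against 7.60% of all genes. Without VP64-MyoD replicate 2 the number lower than in WT-MyoD cells was 1. The comparisons share groups of libraries, so they are not independent of each other.

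The most common arrangement, held by 19 of the 37 genes, was a call lower in both MyoD groups than in untreated cells and higher in VP64-MyoD than in WT-MyoD cells. Among all genes tested, 2.30% were called this way. A further 9 genes were lower with WT-MyoD, were not called different between VP64-MyoD and untreated cells, and were higher in VP64-MyoD than in WT-MyoD cells; 4.18% of all genes were called so. Another 5 genes (ATF5, CEBPB, SLC7A11, SLC7A1 and AARS1) were lower in both MyoD groups with no call between them, as were 6.66% of all genes. PSPH, STC2, SLC38A2 and ATF3 each had an arrangement of their own, given with their values below. Relative to untreated cells, the fitted level of the 37 genes lay between 38.5% (ATF5 and SLC38A2) and 180% (ATF3) with VP64-MyoD, with a median of 73.7%, and between 14.9% (TRIB3) and 128% (STC2) with WT-MyoD, with a median of 45.8%. The summed level of the 37 genes was 6247.5 and 6290.7 CPM in VP64-MyoD cells, 4324.6 and 4447.3 CPM in WT-MyoD cells and 8873.7 and 8936.4 CPM in untreated cells, with no overlap between the groups. With 2 libraries a group, such separation was common. It held for 71.4% of all genes between WT-MyoD and untreated, 83.2% between VP64-MyoD and untreated and 78.1% between the MyoD groups. In bulk RNA, fewer cells expressing a gene and less of its RNA per cell cannot be told apart.

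**Figure D1:**
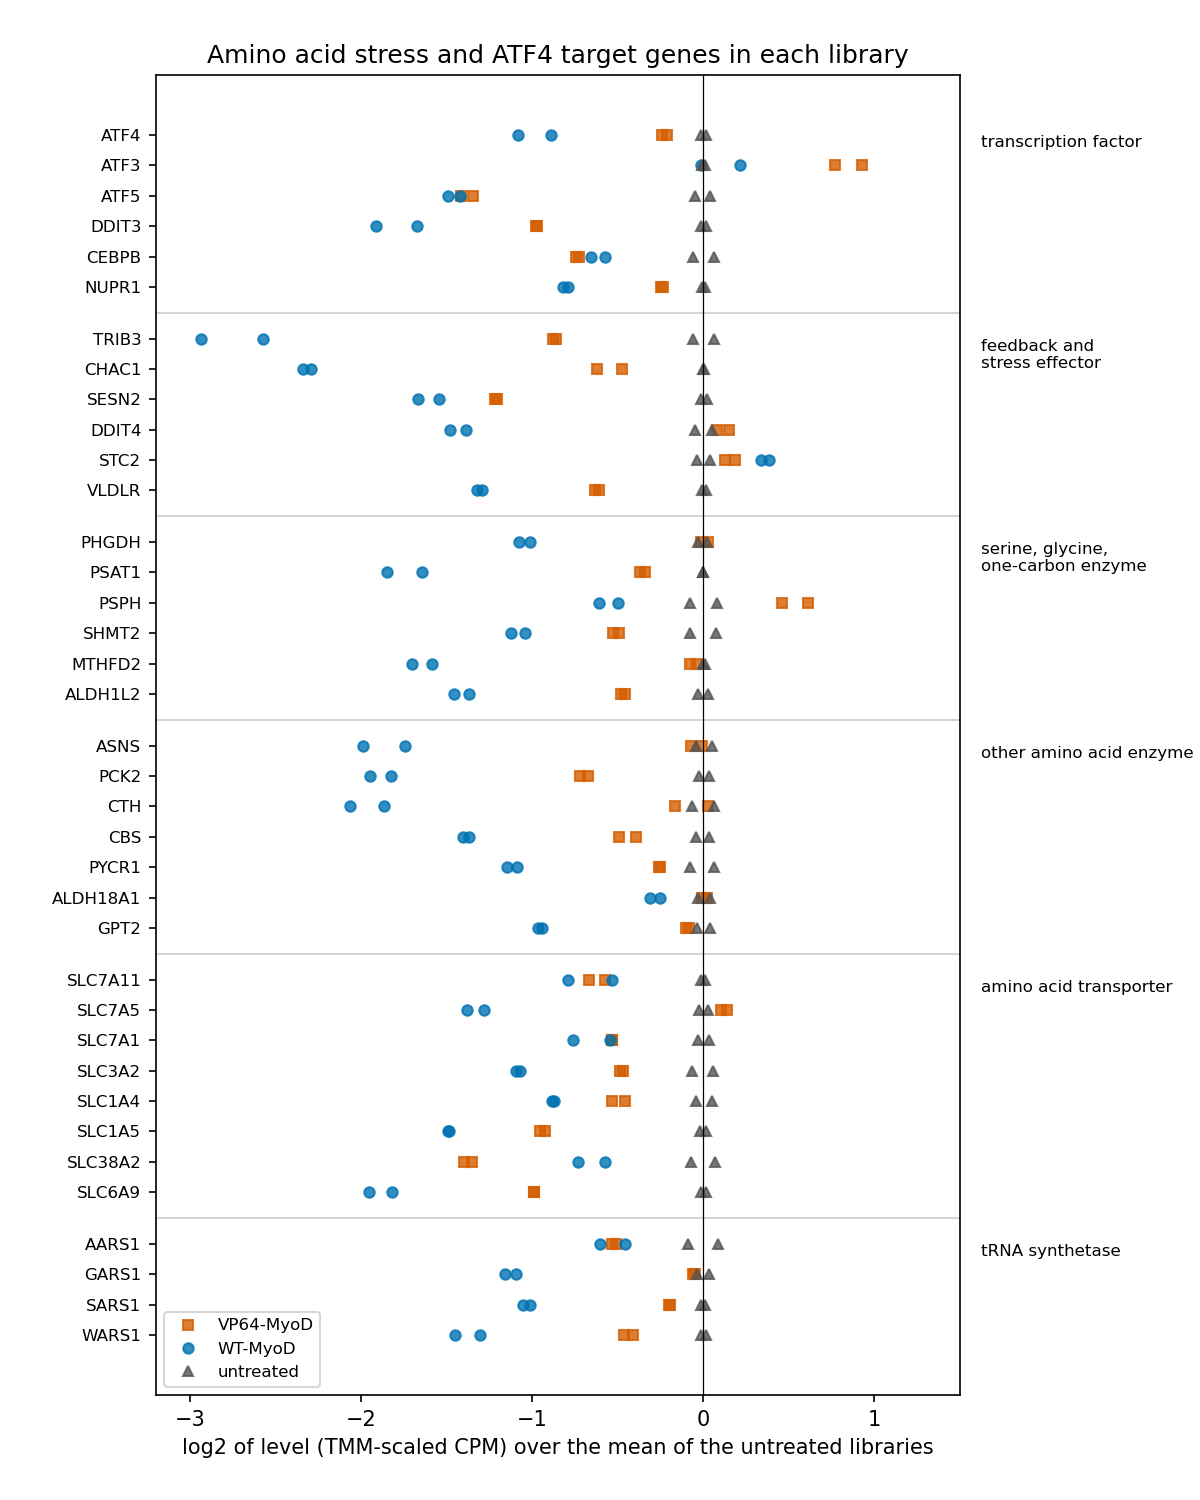
Level of each of the 37 genes in each library, as log2 of its TMM-scaled CPM over the mean of the 2 untreated libraries (x axis); rows are genes grouped by role, squares are VP64-MyoD, circles WT-MyoD and triangles untreated libraries. For 28 genes the mean of the circles lies left of that of the squares, and that of the squares left of that of the triangles. In DDIT4, PHGDH, PSPH, ALDH18A1 and SLC7A5 the squares have the highest mean, in CEBPB and SLC38A2 the squares have the lowest, and in ATF3 and STC2 the triangles have the lowest.

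ATF4 and its partners bind a composite sequence, the C/EBP-ATF response element. The core of this element was looked up in the promoters of the 37 genes, as the letters TGATGNAA (N being any base) on both strands. The window ran from 250 bases before to 50 bases after each start in RefSeq (build GRCh38.p14, while the counts were made on hg19). Promoter windows were found for 30 of the 37 genes, some with several starts, and not for NUPR1, PSPH, SHMT2, ALDH1L2, PYCR1, GPT2 and SLC7A11. Of the 49 windows, 9 held the core (18.4%), each in a different gene, against 1270 of 35116 windows of all genes (3.62%) and 370 of 17474 windows of genes tested (2.12%). The gene list was drawn up from known ATF4 biology, in part known through this element, so the share is a description only. In the further ATF4 targets described at the end, 12 of 39 windows held it (30.8%). It was also in 2 of 20 windows of the interferon genes (10%) and 2 of 26 of the pathway regulators (7.69%), lists described below. No window of the lists of other synthetases, folate enzymes, NRF2 targets, cell division or unfolded protein genes held it. Of the 9 matches, 7 have a core that begins upstream of the start and are called upstream matches here. The SLC1A4 core reaches the start base itself, and the others of these lie wholly upstream. All 7 are shown so that the letters can be read beside the values that follow. Each runs 5′ to 3′ in the direction of the motif, with the core in capitals.
ASNS: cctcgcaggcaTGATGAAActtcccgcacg
CHAC1: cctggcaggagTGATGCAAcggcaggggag
GARS1: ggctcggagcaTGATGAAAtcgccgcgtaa
SLC1A5: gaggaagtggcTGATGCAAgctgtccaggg
SLC1A4: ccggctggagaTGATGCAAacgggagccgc
AARS1: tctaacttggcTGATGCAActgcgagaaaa
ATF3: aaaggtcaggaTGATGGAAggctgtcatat
The ASNS stretch, on the gene's own strand at chr7:97872458-97872487, has the upstream end of its core 68 bases before the annotated start, and the core is part of what is known in human cells as the nutrient-sensing response element of that gene. The SLC1A5 match (chr19:46784893-46784922, 97 bases upstream) and the ATF3 match (chr1:212565205-212565234, 191 bases upstream) also lie on the gene's strand. The CHAC1 (chr15:40953251-40953280, 209 bases), AARS1 (chr16:70289675-70289704, 187 bases), GARS1 (chr7:30594834-30594863, 33 bases) and SLC1A4 (chr2:64989381-64989410, 7 bases) matches lie on the opposite strand. The remaining matches, in SLC3A2 and SLC7A1, lie after the start. Genes with an upstream match did not share a single size of difference: the log2 fold changes of WT-MyoD over untreated ran from -2.32 for CHAC1, -1.86 for ASNS, -1.49 for SLC1A5 and -1.13 for GARS1 to -0.88 for SLC1A4, -0.53 for AARS1 and 0.11 for ATF3, the last of these not called.

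Among the transcription factors, ATF4 itself, the factor at the centre of the response, stood at 236 and 241 CPM in the VP64-MyoD libraries, 151 and 132 CPM in the WT-MyoD libraries, and 277 and 283 CPM in the untreated ones. The groups did not overlap, which in any 1 comparison held for 71.4% to 83.2% of all genes. ATF4 was lower with WT-MyoD than in untreated cells (log2 fold change -0.98 ± 0.07 SE, adjusted p 7.7e-09 in edgeR). It was higher in VP64-MyoD than in WT-MyoD cells (log2 fold change 0.75 ± 0.07 SE, adjusted p 2.1e-07 in edgeR). VP64-MyoD was also lower than untreated (log2 fold change -0.23 ± 0.07 SE, adjusted p 0.0084 in edgeR). Without VP64-MyoD replicate 1 the adjusted p was 0.075 and without untreated replicate 2 it was 0.066, in a range over all alternatives from 3.9e-05 to 0.075. DDIT3, which encodes CHOP, a factor that promotes cell death under lasting stress, stood at 8.77 and 8.74 CPM in the VP64-MyoD libraries, 5.4 and 4.57 CPM in the WT-MyoD libraries, and 17.4 and 17 CPM in the untreated ones. It fell with WT-MyoD (log2 fold change -1.78 ± 0.11 SE, adjusted p 1.7e-09 in edgeR) and with VP64-MyoD (log2 fold change -0.98 ± 0.10 SE, adjusted p 8.0e-07 in edgeR). It was higher in VP64-MyoD than in WT-MyoD cells (log2 fold change 0.80 ± 0.11 SE, adjusted p 2.5e-05 in edgeR). NUPR1, a small chromatin-associated stress protein, stood at 68.7 and 69.2 CPM in the VP64-MyoD libraries, 46.2 and 47.1 CPM in the WT-MyoD libraries, and 81 and 82 CPM in the untreated ones. It followed the order of ATF4, with log2 fold changes over untreated of -0.24 for VP64-MyoD and -0.81 for WT-MyoD, both called lower.

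ATF5, a relative of ATF4 whose translation is controlled in the same manner, stood at 59.4 and 56.6 CPM in the VP64-MyoD libraries, 53.6 and 56.3 CPM in the WT-MyoD libraries, and 155 and 146 CPM in the untreated ones. Both MyoD groups lay far below the untreated libraries (log2 fold change -1.38 ± 0.06 SE, adjusted p 4.5e-11 in edgeR for VP64-MyoD; log2 fold change -1.46 ± 0.07 SE, adjusted p 3.1e-11 in edgeR for WT-MyoD). No call separated the MyoD groups (log2 fold change 0.08 ± 0.07 SE, adjusted p 0.33 in edgeR). CEBPB, a C/EBP factor that can pair with ATF4, stood at 23.3 and 23 CPM in the VP64-MyoD libraries, 24.4 and 25.8 CPM in the WT-MyoD libraries, and 40.2 and 36.9 CPM in the untreated ones. It too was lower in both MyoD groups, with log2 fold changes of -0.74 (VP64-MyoD) and -0.62 (WT-MyoD), with no call between them (log2 fold change -0.12 ± 0.08 SE, adjusted p 0.23 in edgeR). ATF3, an early stress factor induced by ATF4 and by many other signals, stood at 5.16 and 4.62 CPM in the VP64-MyoD libraries, 3.14 and 2.68 CPM in the WT-MyoD libraries, and 2.69 and 2.73 CPM in the untreated ones. VP64-MyoD libraries were above all others (log2 fold change 0.85 ± 0.16 SE, adjusted p 3.0e-04 in edgeR over untreated; log2 fold change 0.74 ± 0.16 SE, adjusted p 0.0011 in edgeR over WT-MyoD). WT-MyoD was not called different from untreated (log2 fold change 0.11 ± 0.17 SE, adjusted p 0.62 in edgeR). ATF3 counts were spread over 6 transcript rows. With the row of highest total alone the adjusted p was 0.12 for VP64-MyoD over untreated and 0.075 for VP64-MyoD over WT-MyoD, in ranges from 1.1e-06 to 0.12 and from 2.7e-05 to 0.075. That row gave a log2 fold change of -0.12 for WT-MyoD over untreated, and all rows without WT-MyoD replicate 1 gave -0.02, neither called.

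**Figure D2:**
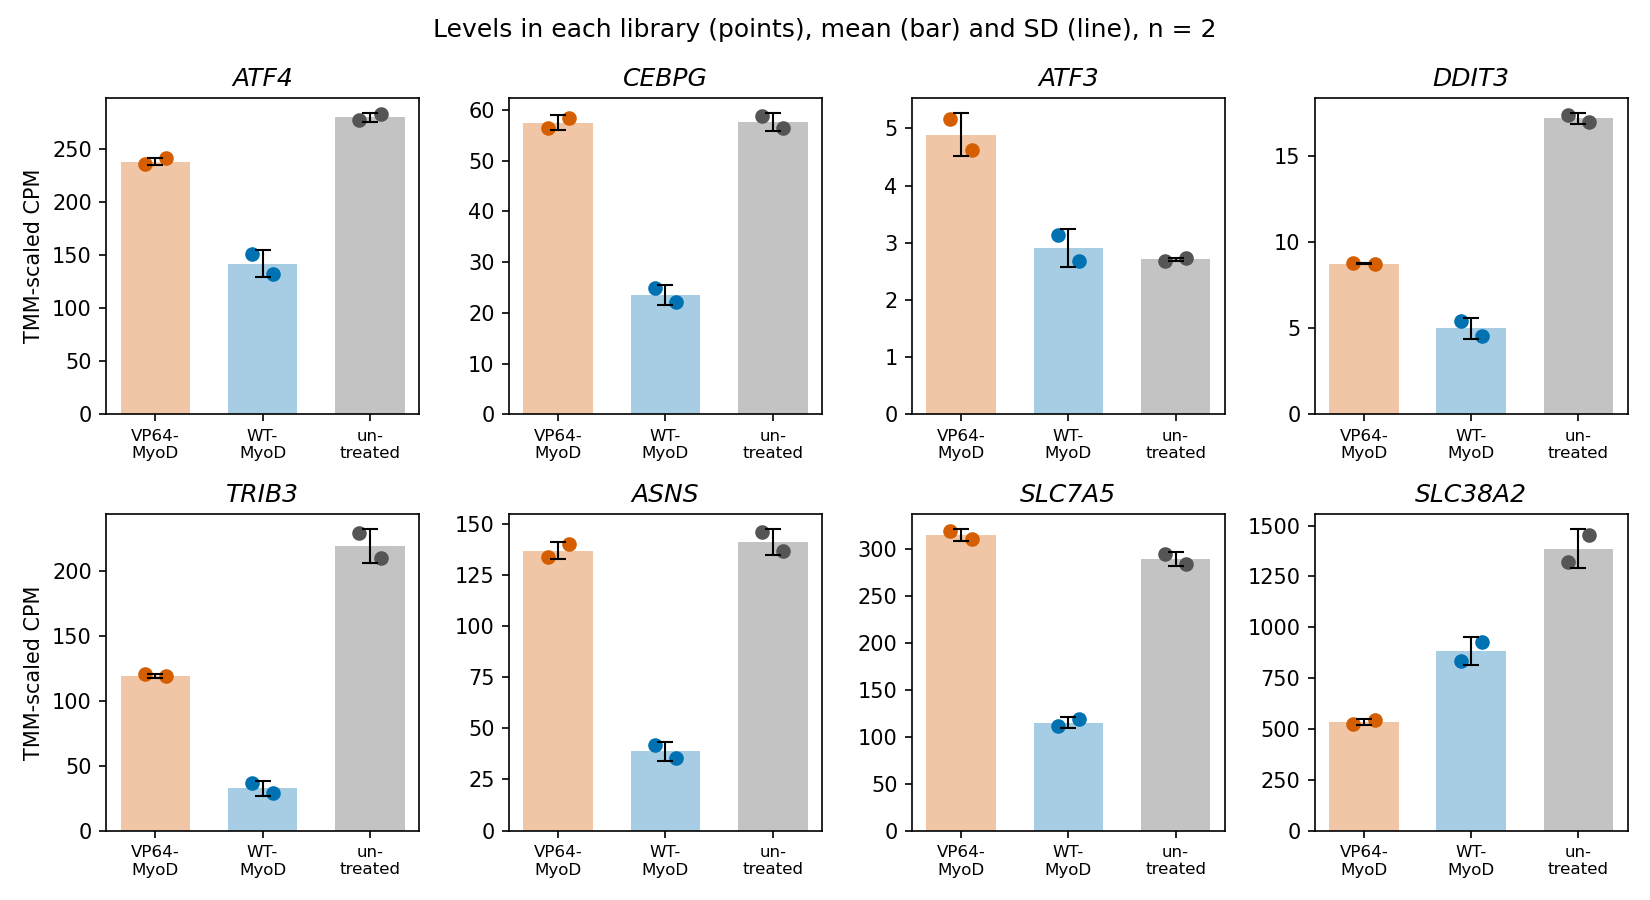
Levels of 8 genes in TMM-scaled CPM (y axis, from 0) with VP64-MyoD, WT-MyoD and in untreated cells; points are libraries, bars means and lines SD (n = 2 each). ATF4, CEBPG, DDIT3, TRIB3, ASNS and SLC7A5 are lowest with WT-MyoD, SLC38A2 is lowest with VP64-MyoD, and ATF3 is highest with VP64-MyoD.

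The feedback and stress effectors TRIB3 and CHAC1 had the deepest falls of the 37 genes with WT-MyoD over untreated. TRIB3, a pseudokinase that binds and restrains ATF4 and CHOP, stood at 120.3 and 119 CPM in the VP64-MyoD libraries, 36.7 and 28.6 CPM in the WT-MyoD libraries, and 229 and 209.7 CPM in the untreated ones. VP64-MyoD libraries held 54.5% of the untreated level (log2 fold change -0.88 ± 0.09 SE, adjusted p 3.9e-07 in edgeR) and WT-MyoD libraries 14.9% (log2 fold change -2.74 ± 0.10 SE, adjusted p 1.5e-12 in edgeR). Between the MyoD groups the log2 fold change was 1.87. CHAC1, an enzyme that breaks down glutathione, stood at 25.8 and 23.3 CPM in the VP64-MyoD libraries, 7.31 and 7.1 CPM in the WT-MyoD libraries, and 36 and 35.9 CPM in the untreated ones. It showed the same arrangement, at 68.3% of the untreated level with VP64-MyoD and 20.1% with WT-MyoD, both called lower. SESN2, a leucine-binding inhibitor of the growth kinase mTORC1, stood at 54.1 and 53.8 CPM in the VP64-MyoD libraries, 39.3 and 42.8 CPM in the WT-MyoD libraries, and 127 and 124 CPM in the untreated ones. SESN2 lay at 43.0% of its untreated level with VP64-MyoD and 32.7% with WT-MyoD, with log2 fold changes of -1.22 for VP64-MyoD and -1.61 for WT-MyoD. The difference between the MyoD groups was 0.40 (SE 0.07, edgeR adjusted p = 1.0e-04).

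DDIT4, another mTORC1 inhibitor that also responds to hypoxia and glucocorticoids, stood at 98.9 and 94.1 CPM in the VP64-MyoD libraries, 34 and 31.9 CPM in the WT-MyoD libraries, and 92.1 and 85.9 CPM in the untreated ones. WT-MyoD alone was low (log2 fold change -1.43 ± 0.07 SE, adjusted p 7.0e-11 in edgeR), and VP64-MyoD did not get a call against untreated (log2 fold change 0.12 ± 0.07 SE, adjusted p 0.14 in edgeR). With only those groups in the fit the adjusted p was 0.045, in a range from 0.045 to 0.58. VLDLR, a lipoprotein receptor, stood at 64.4 and 65.5 CPM in the VP64-MyoD libraries, 39.9 and 40.7 CPM in the WT-MyoD libraries, and 101 and 99.3 CPM in the untreated ones. It was lower in both groups, with log2 fold changes of -0.62 (VP64-MyoD) and -1.31 (WT-MyoD). STC2, a secreted glycoprotein, went against the rest, at 284 and 272 CPM in the VP64-MyoD libraries, 315 and 325 CPM in the WT-MyoD libraries, and 256 and 243 CPM in the untreated ones. It was the only member called higher with WT-MyoD (log2 fold change 0.36 ± 0.06 SE, adjusted p 1.9e-04 in edgeR). The smaller differences of VP64-MyoD from untreated (log2 fold change 0.16, edgeR adjusted p = 0.041) and from WT-MyoD (-0.20, edgeR adjusted p = 0.011) lost their calls under some alternatives. The first had an adjusted p of 0.05 with RLE size factors, 0.078 and 0.29 without untreated replicates 1 and 2, and 0.27 and 0.11 without VP64-MyoD replicates 1 and 2, in a range from 0.004 to 0.29. The second had 0.14 without VP64-MyoD replicate 2, in a range from 8.2e-04 to 0.14.

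All 6 enzymes of serine, glycine and one-carbon metabolism were lower with WT-MyoD than in untreated cells and higher in VP64-MyoD than in WT-MyoD cells. Of all genes, 22.2% were called lower and 28.3% higher in those comparisons. PHGDH, PSAT1 and PSPH carry the serine synthesis route from a glycolytic intermediate, in that order. PHGDH stood at 149.5 and 154 CPM in the VP64-MyoD libraries, 74.7 and 71.4 CPM in the WT-MyoD libraries, and 153 and 148 CPM in the untreated ones. Its VP64-MyoD and untreated libraries overlapped, while WT-MyoD lay at 48.5% of the untreated level (log2 fold change -1.04 ± 0.06 SE, adjusted p 8.9e-10 in edgeR). PSAT1 stood at 335 and 342 CPM in the VP64-MyoD libraries, 139 and 120.2 CPM in the WT-MyoD libraries, and 433 and 434 CPM in the untreated ones. It lay at 78.1% of the untreated level with VP64-MyoD (log2 fold change -0.36 ± 0.07 SE, adjusted p 3.8e-04 in edgeR) and at 29.9% with WT-MyoD (log2 fold change -1.74 ± 0.07 SE, adjusted p 1.3e-11 in edgeR). PSPH stood at 21.6 and 24 CPM in the VP64-MyoD libraries, 11.1 and 10.3 CPM in the WT-MyoD libraries, and 16.6 and 14.9 CPM in the untreated ones. It differed in direction between the MyoD groups: it was lower than untreated with WT-MyoD (log2 fold change -0.56 ± 0.10 SE, adjusted p 2.3e-04 in edgeR) and higher than untreated with VP64-MyoD (log2 fold change 0.53 ± 0.09 SE, adjusted p 1.5e-04 in edgeR), the only member with calls in both directions against untreated cells. PSPH has a near-identical pseudogene copy with which its reads may be shared, so its level is uncertain.

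In mitochondria, SHMT2 turns serine into glycine and a one-carbon unit, which MTHFD2 and ALDH1L2 oxidize further. MTHFD2 stood at 181 and 186 CPM in the VP64-MyoD libraries, 63.5 and 58.7 CPM in the WT-MyoD libraries, and 191 and 192 CPM in the untreated ones. VP64-MyoD was not called different from untreated (log2 fold change -0.06 ± 0.06 SE, adjusted p 0.44 in edgeR), and WT-MyoD held 32.0% of the untreated level (log2 fold change -1.65 ± 0.06 SE, adjusted p 6.3e-12 in edgeR). SHMT2 stood at 174 and 178 CPM in the VP64-MyoD libraries, 122 and 115 CPM in the WT-MyoD libraries, and 264 and 238 CPM in the untreated ones. ALDH1L2 stood at 451 and 459 CPM in the VP64-MyoD libraries, 229.7 and 244 CPM in the WT-MyoD libraries, and 617 and 643 CPM in the untreated ones. Both fell in both MyoD groups and further with WT-MyoD, with log2 fold changes over untreated of -0.52 (VP64-MyoD) and -1.08 (WT-MyoD) for SHMT2, and of -0.47 and -1.41 for ALDH1L2. Other genes of folate metabolism were called in both directions. Of 9 tested, 4 were higher and 2 lower with WT-MyoD, against 25.7% and 22.2% of all genes. With VP64-MyoD 6 were higher and 1 lower, against 33.0% and 30.0% of all genes. The number lower with WT-MyoD was 1 without untreated replicate 1, without WT-MyoD replicate 1 and with DESeq2. Between the MyoD groups, 2 were higher and 3 lower with VP64-MyoD, or 1 higher without WT-MyoD replicate 1 or VP64-MyoD replicate 2. Of all genes, 28.3% were higher and 28.2% lower in VP64-MyoD than in WT-MyoD cells. TYMS, which makes thymidylate for DNA, had mean levels of 29.1 CPM in VP64-MyoD cells, 44.7 CPM in WT-MyoD cells and 11.1 CPM in untreated cells. The mitochondrial folate carrier SLC25A32 had the calls of PSPH, with log2 fold changes of -0.50 for WT-MyoD over untreated, 0.26 for VP64-MyoD over untreated and 0.76 for VP64-MyoD over WT-MyoD. Cell division genes also differed between the groups: the 16 listed genes summed to 610.3 and 644 CPM in VP64-MyoD cells, 970.0 and 1039.6 CPM in WT-MyoD cells and 200.2 and 209 CPM in untreated cells. All 16 were higher in both MyoD groups than in untreated cells, against 25.7% of all genes with WT-MyoD and 33.0% with VP64-MyoD. Between the MyoD groups, 12 were lower in VP64-MyoD than in WT-MyoD cells, against 28.2% of all genes. TOP2A, the topoisomerase of dividing cells, had means of 92.3 CPM in VP64-MyoD cells, 160.3 CPM in WT-MyoD cells and 26.9 CPM in untreated cells. The mitotic genes AURKA, KIF20A and TPX2 had log2 fold changes of WT-MyoD over untreated of 2.83, 2.43 and 2.07. The part of cell division in these results was not tested.

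The 7 other amino acid enzymes were lower with WT-MyoD and higher in VP64-MyoD than in WT-MyoD cells without exception. Of all genes, 22.2% were called lower and 28.3% higher in those comparisons. Against untreated cells, 3 of the 7 were called lower with VP64-MyoD, as were 30.0% of all genes. ASNS, which makes asparagine and whose promoter element is printed above, stood at 134 and 140.1 CPM in the VP64-MyoD libraries, 42 and 35.5 CPM in the WT-MyoD libraries, and 146 and 137 CPM in the untreated ones. CTH, the last enzyme of cysteine synthesis from methionine, stood at 9.97 and 11.4 CPM in the VP64-MyoD libraries, 3.07 and 2.68 CPM in the WT-MyoD libraries, and 11.7 and 10.7 CPM in the untreated ones. For both, VP64-MyoD libraries overlapped the untreated ones, and WT-MyoD libraries lay at 27.5% of them for ASNS and 25.8% for CTH. WT-MyoD was lower than untreated with log2 fold changes of -1.86 for ASNS (SE 0.08, edgeR adjusted p = 1.5e-11) and -1.95 for CTH (SE 0.13, edgeR adjusted p = 4.7e-09). PCK2, the mitochondrial enzyme that makes phosphoenolpyruvate, stood at 118 and 114 CPM in the VP64-MyoD libraries, 53.1 and 48.7 CPM in the WT-MyoD libraries, and 192 and 185 CPM in the untreated ones. CBS, which precedes CTH in the same route, stood at 99.6 and 93 CPM in the VP64-MyoD libraries, 50.7 and 49.4 CPM in the WT-MyoD libraries, and 134 and 127 CPM in the untreated ones. PCK2 and CBS were lower in both groups, and deeper with WT-MyoD, with log2 fold changes over untreated of -0.70 (VP64-MyoD) and -1.89 (WT-MyoD) for PCK2 and of -0.44 and -1.38 for CBS.

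PYCR1 and ALDH18A1 make proline in mitochondria. PYCR1 stood at 94.5 and 94.9 CPM in the VP64-MyoD libraries, 53.1 and 51 CPM in the WT-MyoD libraries, and 118 and 107 CPM in the untreated ones. It was lower with WT-MyoD (log2 fold change -1.11 ± 0.07 SE, adjusted p 1.2e-09 in edgeR) and, less so, with VP64-MyoD (log2 fold change -0.25 ± 0.07 SE, adjusted p 0.0039 in edgeR). Without untreated replicate 1 that last adjusted p was 0.094, in a range from 1.4e-04 to 0.094. ALDH18A1 stood at 135 and 138 CPM in the VP64-MyoD libraries, 114 and 109.6 CPM in the WT-MyoD libraries, and 139.6 and 133 CPM in the untreated ones. Its fall with WT-MyoD was the smallest among the members called lower (log2 fold change -0.28 ± 0.06 SE, adjusted p 0.0014 in edgeR), and its VP64-MyoD libraries overlapped the untreated ones. GPT2, the mitochondrial alanine aminotransferase, stood at 42.3 and 41.7 CPM in the VP64-MyoD libraries, 22.9 and 23.3 CPM in the WT-MyoD libraries, and 46 and 43.6 CPM in the untreated ones. WT-MyoD libraries held 51.5% of the untreated level, and VP64-MyoD did not get a call against untreated (log2 fold change -0.09 ± 0.07 SE, adjusted p 0.25 in edgeR).

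All 8 amino acid transporters were lower with WT-MyoD than in untreated cells, and 7 were lower with VP64-MyoD. Of all genes, 22.2% and 30.0% were called lower in those comparisons. SLC7A5, the light chain of the leucine importer LAT1, stood at 319 and 311 CPM in the VP64-MyoD libraries, 111 and 119 CPM in the WT-MyoD libraries, and 295 and 284 CPM in the untreated ones. It was the transporter not called lower with VP64-MyoD, which lay just above the untreated libraries (log2 fold change 0.12 ± 0.06 SE, adjusted p 0.10 in edgeR). The adjusted p was 0.017 in a fit of those groups alone, 0.020 and 0.018 with WT-MyoD replicate 1 or 2 left out, and ranged from 0.017 to 0.41 over all alternatives. With WT-MyoD it fell (log2 fold change -1.34 ± 0.06 SE, adjusted p 7.1e-11 in edgeR). SLC3A2, the heavy chain it shares with SLC7A11, stood at 128 and 126 CPM in the VP64-MyoD libraries, 84.1 and 82.9 CPM in the WT-MyoD libraries, and 184 and 169 CPM in the untreated ones. The heavy chain was lower in both groups, with log2 fold changes of -0.48 (VP64-MyoD) and -1.08 (WT-MyoD). SLC7A11, the cystine importer and a target of NRF2 as well as ATF4, stood at 182 and 194 CPM in the VP64-MyoD libraries, 167 and 199.8 CPM in the WT-MyoD libraries, and 286 and 291 CPM in the untreated ones. Both MyoD groups were lower than untreated (log2 fold change -0.62 ± 0.08 SE, adjusted p 5.0e-06 in edgeR for VP64-MyoD; log2 fold change -0.65 ± 0.08 SE, adjusted p 3.8e-06 in edgeR for WT-MyoD) and the MyoD libraries overlapped one another. Between the MyoD groups its log2 fold change was 0.04 (edgeR adjusted p = 0.70), -0.09 without WT-MyoD replicate 1, and 0.16 without WT-MyoD replicate 2, where the adjusted p was 0.021 in a range from 0.021 to 0.94. Of 7 other NRF2 targets, 4 were lower and 1 higher with WT-MyoD, against 22.2% and 25.7% of all genes. With VP64-MyoD 3 were lower and 2 higher, against 30.0% and 33.0% of all genes. Without untreated replicate 2 or VP64-MyoD replicate 2 the number higher with VP64-MyoD was 1, and without WT-MyoD replicate 2 the number higher with WT-MyoD was 2. Between the MyoD groups 1 was higher and 3 lower with VP64-MyoD, or 2 higher without WT-MyoD replicate 1 and 5 lower without WT-MyoD replicate 2. Of all genes, 28.3% were higher and 28.2% lower in VP64-MyoD than in WT-MyoD cells. TXNRD1, a thioredoxin reductase, was lowest with VP64-MyoD, at 246 and 247 CPM in the VP64-MyoD libraries, 390.3 and 378 CPM in the WT-MyoD libraries, and 590.0 and 615 CPM in the untreated ones. GCLM, a subunit of the enzyme that starts glutathione synthesis, was lowest with WT-MyoD, at 82.6 and 85.1 CPM in the VP64-MyoD libraries, 43.6 and 41.7 CPM in the WT-MyoD libraries, and 76.1 and 77.8 CPM in the untreated ones. NQO1, a quinone reductase, was higher in both MyoD groups than in untreated cells, and SRXN1, sulfiredoxin, lower in both.

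SLC38A2, the sodium-coupled importer SNAT2, stood at 525 and 543 CPM in the VP64-MyoD libraries, 834 and 929.5 CPM in the WT-MyoD libraries, and 1319.7 and 1454.5 CPM in the untreated ones. Its calls were unlike those of every other member: it was lower in VP64-MyoD than in WT-MyoD cells (log2 fold change -0.72 ± 0.08 SE, adjusted p 8.7e-07 in edgeR) and lower in both than in untreated cells (log2 fold change -1.38 ± 0.08 SE, adjusted p 3.3e-10 in edgeR for VP64-MyoD; log2 fold change -0.65 ± 0.08 SE, adjusted p 2.6e-06 in edgeR for WT-MyoD). Beside it only STC2 was called lower in VP64-MyoD than in WT-MyoD cells. SLC38A1, its close relative, in the list of further ATF4 targets and named after its values were seen, was also lower in VP64-MyoD than in WT-MyoD cells (log2 fold change -1.06), but higher with WT-MyoD than untreated (log2 fold change 0.33). SLC7A1, the arginine and lysine importer, stood at 262 and 262 CPM in the VP64-MyoD libraries, 223 and 260.1 CPM in the WT-MyoD libraries, and 387 and 371 CPM in the untreated ones. It was lower in both MyoD groups, with log2 fold changes of -0.53 (VP64-MyoD) and -0.65 (WT-MyoD). The MyoD groups differed from each other by 0.12 (edgeR adjusted p = 0.18), or by 0.22 without WT-MyoD replicate 2, with an adjusted p of 0.0014 in a range from 0.0014 to 0.87.

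SLC1A5, the glutamine exchanger ASCT2, stood at 350.1 and 343 CPM in the VP64-MyoD libraries, 236 and 237 CPM in the WT-MyoD libraries, and 671 and 656 CPM in the untreated ones. SLC1A4, the alanine, serine and cysteine exchanger, stood at 112 and 118 CPM in the VP64-MyoD libraries, 87.7 and 88.4 CPM in the WT-MyoD libraries, and 168 and 157 CPM in the untreated ones. SLC6A9, the glycine importer GlyT1, stood at 48.4 and 48.5 CPM in the VP64-MyoD libraries, 24.8 and 27.2 CPM in the WT-MyoD libraries, and 95.1 and 97.3 CPM in the untreated ones. All of these were lowest with WT-MyoD and intermediate with VP64-MyoD. Their libraries did not overlap between groups, which in any 1 comparison held for 71.4% to 83.2% of all genes. SLC6A9 had the deepest fall of the transporters with WT-MyoD (log2 fold change -1.89 ± 0.07 SE, adjusted p 2.8e-12 in edgeR), followed by SLC1A5 (log2 fold change -1.49 ± 0.06 SE, adjusted p 1.4e-11 in edgeR). With VP64-MyoD the log2 fold changes over untreated were -0.99 for SLC6A9, -0.94 for SLC1A5 and -0.50 for SLC1A4.

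The 4 tRNA synthetases of the list charge tRNAs with alanine (AARS1), glycine (GARS1), serine (SARS1) and tryptophan (WARS1). All were lower with WT-MyoD than in untreated cells, as were 22.2% of all genes. GARS1 stood at 462 and 465 CPM in the VP64-MyoD libraries, 225 and 215 CPM in the WT-MyoD libraries, and 469 and 492 CPM in the untreated ones. SARS1 stood at 225 and 224 CPM in the VP64-MyoD libraries, 128 and 124 CPM in the WT-MyoD libraries, and 256 and 260.1 CPM in the untreated ones. With VP64-MyoD they lay at 96.5% (GARS1) and 87.1% (SARS1) of the untreated level, and with WT-MyoD at 45.8% (GARS1) and 48.8% (SARS1). The small VP64-MyoD difference was not called for GARS1 (edgeR adjusted p = 0.49) and was called for SARS1 (edgeR adjusted p = 0.0084), though not without untreated replicate 2 (adjusted p = 0.066) or without VP64-MyoD replicate 1 (0.069) or 2 (0.072), in a range from 2.0e-04 to 0.072. AARS1 stood at 296 and 291 CPM in the VP64-MyoD libraries, 278 and 307 CPM in the WT-MyoD libraries, and 397 and 448 CPM in the untreated ones. Here the MyoD groups overlapped each other, and both were below the untreated libraries (log2 fold change -0.52 ± 0.07 SE, adjusted p 1.4e-05 in edgeR for VP64-MyoD; log2 fold change -0.53 ± 0.07 SE, adjusted p 1.9e-05 in edgeR for WT-MyoD). WARS1, which interferon also induces, stood at 343 and 357 CPM in the VP64-MyoD libraries, 192 and 173 CPM in the WT-MyoD libraries, and 469 and 479 CPM in the untreated ones. It fell with WT-MyoD (log2 fold change -1.38 ± 0.07 SE, adjusted p 9.9e-11 in edgeR) and was higher in VP64-MyoD than in WT-MyoD cells (log2 fold change 0.94 ± 0.07 SE, adjusted p 1.1e-08 in edgeR). The listed interferon genes moved the other way: 19 of 20 were higher with WT-MyoD than in untreated cells, against 25.7% of all genes. Between the MyoD groups, 19 were lower in VP64-MyoD than in WT-MyoD cells, against 28.2% of all genes. OAS2, an antiviral enzyme, had means of 8.95 CPM in VP64-MyoD cells, 74.5 CPM in WT-MyoD cells and 1.94 CPM in untreated cells. OAS3, of the same family, and IFI6 had log2 fold changes of WT-MyoD over untreated of 4.20 and 4.68. USP18, which restrains interferon signalling, was the one higher in VP64-MyoD than in WT-MyoD cells (log2 fold change 0.68). The part of the interferon response in these results was not tested.

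A separate list held 8 other cytosolic synthetases. Of these, 4 were higher and 1 lower with WT-MyoD than untreated, against 25.7% and 22.2% of all genes. With VP64-MyoD 6 were higher and 1 lower than untreated, against 33.0% and 30.0% of all genes. RARS1, the arginine enzyme, stood at 114 and 111 CPM in the VP64-MyoD libraries, 83.7 and 68.8 CPM in the WT-MyoD libraries, and 59.5 and 57.9 CPM in the untreated ones. It was thus lowest in untreated cells, where AARS1, GARS1, SARS1 and WARS1 were highest. FARSB, a subunit of the phenylalanine enzyme, was higher with VP64-MyoD than untreated (log2 fold change 0.85), and HARS1, the histidine enzyme, was higher in both MyoD groups (0.61 for VP64-MyoD and 0.45 for WT-MyoD). VARS1 was the one called lower with WT-MyoD (-0.30) and QARS1 the one called lower with VP64-MyoD (-0.16), both named after their values were seen. The QARS1 call was absent with any one of the untreated or VP64-MyoD libraries left out, and 2 of these synthetases were called lower with WT-MyoD without WT-MyoD replicate 1.

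Further genes attributed to ATF4 were read from a second list of 30, of which 28 were tested; FGF21 and SLC7A3 had no count in any library. With WT-MyoD 21 were lower and 2 higher (median log2 fold change -0.65), against 22.2% and 25.7% of all genes. With VP64-MyoD 14 were lower and 7 higher than in untreated cells, with a median of -0.19; without untreated replicate 1 the number higher was 3. Of all genes, 30.0% were lower and 33.0% higher with VP64-MyoD than in untreated cells. Against WT-MyoD, 18 of the list were higher and 6 lower with VP64-MyoD, with a median of 0.54. The shares of all genes there were 28.3% and 28.2%. The tRNA exporter XPOT and all 8 synthetases in it (IARS1, MARS1, NARS1, EPRS1, YARS1, CARS1, LARS1 and TARS1) were among the 21 and among the 18; they are named after their values were seen. ADM2, a secreted peptide of the calcitonin family, stood at 19 and 18.1 CPM in the VP64-MyoD libraries, 8.79 and 8.86 CPM in the WT-MyoD libraries, and 52.6 and 48.8 CPM in the untreated ones. It fell with WT-MyoD (log2 fold change -2.52 ± 0.08 SE, adjusted p 9.5e-13 in edgeR) and with VP64-MyoD (log2 fold change -1.45). NIBAN1, a stress-induced protein, stood at 203 and 204 CPM in the VP64-MyoD libraries, 149 and 177 CPM in the WT-MyoD libraries, and 456 and 466 CPM in the untreated ones and was lower in both MyoD groups. JDP2, a bZIP repressor, had means of 58.4 CPM in VP64-MyoD cells, 62.5 CPM in WT-MyoD cells and 133 CPM in untreated cells, lower in both with no call between them (log2 fold change -0.10). SQSTM1, an autophagy receptor, was lower in VP64-MyoD than in WT-MyoD cells (log2 fold change -0.70), as SLC38A2 was. The genes called higher with WT-MyoD were SLC38A1 and SLC25A22, a mitochondrial glutamate carrier also named after its value was seen; with a stricter filter on low counts 4 were called higher.

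**Figure D3:**
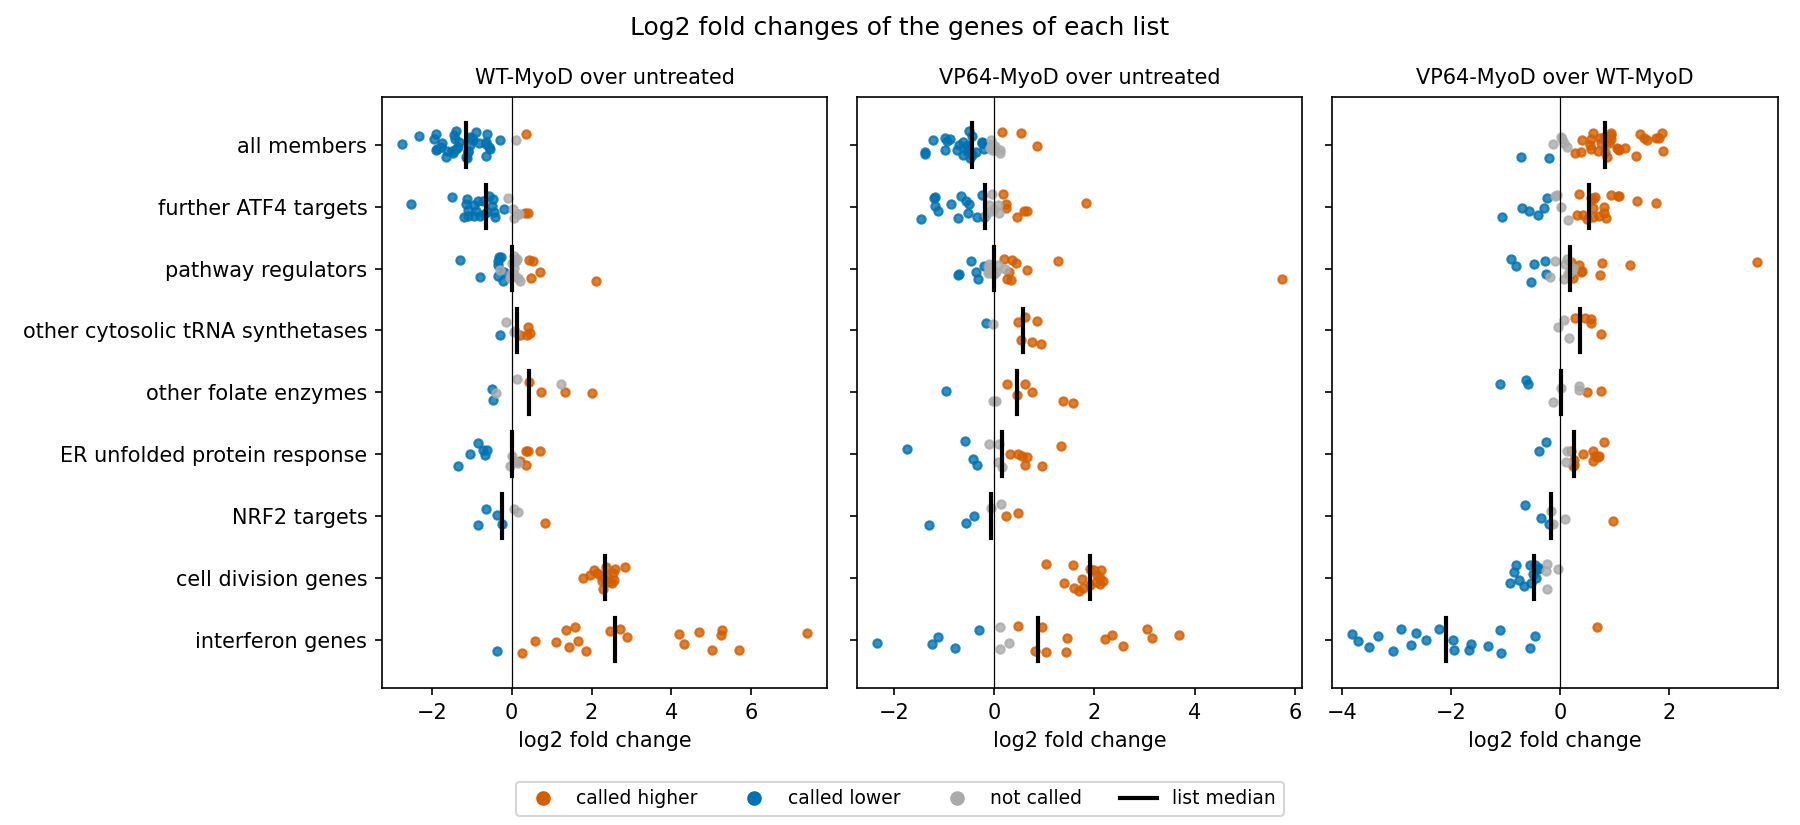
Log2 fold change (x axis) of each tested gene in the 37-gene list (top row) and in 8 other lists, one panel per comparison; points are genes, coloured by call, and black lines are list medians. The 37 genes and the further ATF4 targets have medians of -1.13 and -0.65 with WT-MyoD over untreated and of 0.83 and 0.54 with VP64-MyoD over WT-MyoD, while the other synthetases, folate enzymes and pathway regulators lie nearer to 0 or above it in the first panel.

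The regulators of the pathway, which include the eIF2 kinases and exchange factor and partners of ATF4, were called in both directions. Of 25, 5 were higher and 9 lower with WT-MyoD than in untreated cells (median log2 fold change 0.01), against 25.7% and 22.2% of all genes. With VP64-MyoD 9 were higher and 6 lower, against 33.0% and 30.0% of all genes. Between the MyoD groups, 10 were higher and 6 lower with VP64-MyoD (median 0.18), against 28.3% and 28.2% of all genes. Of the kinases that phosphorylate eIF2, all given here whatever their values, EIF2AK4 (GCN2, the sensor of uncharged tRNA) had means of 159 CPM in VP64-MyoD cells, 169.7 CPM in WT-MyoD cells and 154 CPM in untreated cells, with no call in any comparison. EIF2AK3 (PERK, the sensor of unfolded protein) was not called between WT-MyoD and untreated cells (log2 fold change -0.05) and was lower with VP64-MyoD than untreated (log2 fold change -0.32). EIF2AK1 (HRI) was lower with WT-MyoD than untreated by a small amount (log2 fold change -0.18). EIF2AK2 (PKR), an interferon-induced kinase activated by double-stranded RNA, was higher with WT-MyoD than untreated (log2 fold change 0.53) and lower with VP64-MyoD than untreated (log2 fold change -0.36). CEBPG, a C/EBP protein that pairs with ATF4, stood at 56.4 and 58.5 CPM in the VP64-MyoD libraries, 24.9 and 22.2 CPM in the WT-MyoD libraries, and 58.9 and 56.4 CPM in the untreated ones. It had the arrangement of ASNS, low with WT-MyoD (log2 fold change -1.29 ± 0.07 SE, adjusted p 6.7e-10 in edgeR), with overlapping VP64-MyoD and untreated libraries. PPP1R15A (GADD34), which directs a phosphatase to eIF2 and is itself an ATF4 target, was lower with VP64-MyoD, at 65.5 and 62.9 CPM in the VP64-MyoD libraries, 110.2 and 113 CPM in the WT-MyoD libraries, and 102 and 107 CPM in the untreated ones. It was not called between WT-MyoD and untreated cells (log2 fold change 0.10, edgeR adjusted p = 0.21). CEBPA, a C/EBP factor of fat and liver, rose with VP64-MyoD to 3.55 CPM, against 0.287 CPM in WT-MyoD cells and 0.0628 CPM in untreated cells, where it rested on 4 and 2 counts in replicates 1 and 2. EIF2B2, a subunit of the exchange factor that recharges eIF2 with GTP, was higher in both MyoD groups, with log2 fold changes over untreated of 1.27 (VP64-MyoD) and 0.49 (WT-MyoD).

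The chaperone branch of the unfolded protein response, controlled mainly by ATF6 and XBP1, was split with WT-MyoD. Of 15 genes, 5 were higher and 6 lower (median log2 fold change 0.01), against 25.7% and 22.2% of all genes. Over untreated cells, 7 were higher and 4 lower with VP64-MyoD (median 0.15), against 33.0% and 30.0% of all genes. Over WT-MyoD cells, 11 were higher and 2 lower with VP64-MyoD (median 0.26), against 28.3% and 28.2% of all genes. Without untreated replicate 2 the number higher with WT-MyoD was 3, and the number lower between the MyoD groups was 1 without WT-MyoD replicate 2 and 0 without VP64-MyoD replicate 2. XBP1 stood at 136 and 137 CPM in the VP64-MyoD libraries, 86 and 81.5 CPM in the WT-MyoD libraries, and 175 and 169.7 CPM in the untreated ones, in the same order of groups as ATF4. ERN1, the sensor IRE1 that splices the XBP1 message, was lower in both MyoD groups, with log2 fold changes of -1.73 (VP64-MyoD) and -1.34 (WT-MyoD). The chaperone genes PDIA4 and SDF2L1 were higher in both, with log2 fold changes over untreated of 0.65 (VP64-MyoD) and 0.22 (WT-MyoD) for PDIA4, and of 1.33 and 0.70 for SDF2L1.

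The authors' deposited table of transcripts called in both of their comparisons with untreated cells listed 36 transcript rows of 20 of the 37 genes. In that authors' deposited table all 36 rows had negative log2 fold changes for both MyoD groups, and each had the signs of its gene here. SLC6A9 had 6 rows in the authors' deposited table, with log2 fold changes of WT-MyoD over untreated from -2.05 to -1.58 and of VP64-MyoD over untreated from -1.20 to -0.90. The SLC1A5 rows in the authors' deposited table lay between -1.54 and -1.46 for WT-MyoD and between -1.03 and -0.83 for VP64-MyoD. A row entered that table only if it passed in both comparisons, which share the untreated libraries, so the agreement in sign among its rows is set in part by that choice. The table also rests on the same libraries as the fit here, so signs shared with this fit are not independent evidence.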

How the data were processed

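The deposited table holds raw read counts per RefSeq transcript and library, not normalized, per the file headers. Bowtie 0.12.9, CASAVA and DESeq 1.10.1 and the build hg19 are named in the submitters' processing notes, and how reads shared by transcripts were counted is not given in the sources used here. Every count is even, so a read pair appears to count as 2. The authors' deposited table of called transcripts holds log2 fold changes. The library kit does not mark strand, per the labels' protocols.

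Counts were summed per gene symbol (39320 rows matched RefSeq names, 521 GENCODE, and 868 rows without a symbol, 0.601 to 0.744% of counts, stayed separate). Overlapping genes and isoforms cannot be told apart. Genes passed edgeR's filterByExpr (minimum count 10, minimum total 15). edgeR 4.0.16 (R 4.3.3) fitted the quasi-likelihood model to all 6 libraries with TMM scaling and 3 residual degrees of freedom; p-values were adjusted by Benjamini-Hochberg over 15771 genes and called under 0.05. The procedure was tested on simulated data. DESeq2 1.42.0 was an alternative. Replicates differed beyond sampling noise.

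The members and lists were chosen with earlier results of these data known. All 37 members are given; of each other list, the 4 genes with the smallest adjusted p are named, except a few that are not reported here.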

Additional observations from a re-analysis of the deposited data

How the results depend on the processing

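The 111 results of the 37 genes were recomputed under 14 alternatives (DESeq2, RLE size factors, no filter, a stricter filter of 100 counts in 2 libraries, read pairs, the top transcript row, 2 groups alone, a replicate block, and each library left out). Of 1554 values 1516 kept direction and call, 14 lost the call, 6 gained one and 18 changed sign. The sign changes touched 7 results, none called, with absolute log2 fold changes up to 0.12. With VP64-MyoD over untreated, 5 of the 37 genes were called higher with 2 groups alone. Between the MyoD groups, 1 to 2 were called lower with a library left out.

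ATF3 with WT-MyoD over untreated had -0.12 with the top transcript row and -0.02 at the lowest with a library left out, up to 0.23. For VP64-MyoD over untreated, ALDH18A1 had -0.0027 with DESeq2 and RLE and -0.04 to 0.04 with a library left out, PHGDH -0.02 to 0.03, ASNS -0.09 to 0.0018 and CTH -0.17 to 0.02. For VP64-MyoD over WT-MyoD, AARS1 had -0.0024 with DESeq2 and RLE, -0.001 with 2 groups alone and -0.07 to 0.07 with a library left out, and SLC7A11 -0.09 to 0.16. The cause was not tested.

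Of the other lists, with WT-MyoD over untreated 4 further ATF4 targets were higher under the stricter filter and 1 folate gene lower with DESeq2. With a library left out, with WT-MyoD 1 to 2 other synthetases and 1 to 2 folate genes were lower, and 1 to 2 NRF2 targets and 3 to 6 unfolded protein genes higher. With VP64-MyoD over untreated 3 to 7 further ATF4 targets and 1 to 3 NRF2 targets were higher, and 0 to 1 other synthetases lower. Between the MyoD groups 1 to 2 folate genes and 1 to 2 NRF2 targets were higher, and 2 to 5 NRF2 targets and 0 to 2 unfolded protein genes lower.

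No pairing of the libraries by replicate number was seen: deviations of same-numbered libraries correlated at 0.0314, 0.0223 and 0.00708. These values cannot show whether same-numbered cultures were handled together. With the replicate block all 111 of 111 results kept direction and call, as for TRIB3 with a log2 fold change of -2.75 for WT-MyoD over untreated. With 2 libraries a group, no library could be tested as standing apart from its group. DDIT3, ATF3 and CTH rest on the fewest counts and have the largest errors.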
